A study of Mus musculus with 8 samples.

Results

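Heme, the iron-carrying ring of hemoglobin, is built by a chain of enzymes that starts and ends in the mitochondrion, and 8 of these enzymes were followed here: Alas1, Alas2, Alad, Uros, Urod, Cpox, Ppox and Fech. They were taken as the listed enzymes of the pathway, by gene symbol and whatever their values, and are 8 of the 24454 gene rows of the table. The third step of the pathway is not analysed here. All 8 passed the filter on low counts.

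RNA had been read from 8 pools of cells sorted from the yolk sacs of E11.5 mouse embryos, the stage at which the first wave of red cells matures. All pools came from the strain given as miR144-451+/GFP C57BL/6, so every library, whatever its sort, carried 1 green fluorescent protein (GFP) allele at the locus of the microRNAs miR-144 and miR-451. Pools were sorted by VE-Cadherin, the endothelial junction protein encoded by Cdh5, and by GFP: 3 endothelial pools of 25 cells (VE-Cadherin+ GFP-, replicates 1 to 3), 3 erythroid pools of 25 cells (VE-Cadherin- GFP+, replicates 4 to 6) and 2 double positive pools of 24 cells (VE-Cadherin+ GFP+, replicates 7 and 8; cell type given as Endothelial-Erythroid). The cells were not cultured or treated, and the sort rests on that one reporter and one antibody.

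The pathway opens with the joining of glycine and succinyl-CoA by 5-aminolevulinate synthase, the step that sets the flow of the whole chain. Vertebrates carry this enzyme in a pair of forms: Alas1 serves all tissues and is held down by heme itself, while Alas2, on the X chromosome, is the red cell form, is switched on by erythroid factors such as GATA1 and is translated according to iron supply. Alad, Uros and Urod work in the cytosol, and Cpox, Ppox and Fech finish the ring in the mitochondrion, where Fech inserts the iron.

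Library totals ran from 3723128 to 7618444 counts, and embryonic globins took 54.5% to 56.5% of erythroid counts, 8.86% and 14.0% of double positive counts and 0.00223% to 0.00404% of endothelial counts. Levels are given below as normalised read counts: CPM, the usual rescaling of counts by library size, where that size is the library total times its TMM factor, a scaling factor that offsets such dominant transcripts. The 10 endothelial markers read summed to 2546 to 3940 CPM in their own population, 453 and 609 in double positive pools and 1.96 to 9.09 in erythroid pools, where 9 of the 10 were at 0, Cdh5 among them. The 8 erythroid markers, such as Slc4a1 and Epb42, summed to 8163 to 8441 CPM in erythroid pools, 384 and 611 in double positive pools and at most 0.326 in endothelial pools, where 5 were at 0. The double positive libraries stood apart in a way that their label does not state: all 12 visceral endoderm markers, Afp and Apoa1 among them, were detected, with sums of 87564 and 89438 CPM, against 29.4 to 45.8 in the endothelial and 10.1 to 22.2 in the erythroid libraries, where Lrp2, Hnf4a, Foxa2 and Ambp were at 0 in both. The 11 macrophage markers were all detected in the endothelial libraries (1349, 3406 and 1491 CPM in replicates 1 to 3). Their sums were 103 and 164 CPM in double positive replicates 7 and 8. Only Csf1r, Cd68 and Mrc1 had counts in replicate 7, whereas all 11 did in replicate 8. Mrc1 alone gave 66.1 and 91.5 CPM of these sums. All 11 were at 0 in erythroid pools. What part these other cell types have in the enzyme levels was not tested.

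Nothing in the labels states whether pools of 1 population came from separate embryos. The p-values measure only how pools differ from one another, a spread that may be technical, and reads were not counted by molecular identifiers. In pools like these, fewer cells of a type and less RNA per cell cannot be told apart.

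The erythroid set of heme enzymes is usually discussed through the control regions of its genes, so stretches upstream of the start site are shown for 3 members whose values differ most plainly below: Alas2, with the largest difference between populations, Cpox, which kept the highest double positive level relative to the erythroid one among the 7 enzymes that were lower there, and Urod, which followed the majority. The sequences are RefSeq's for GRCm38.p6, 5′ to 3′ on the gene's strand, and positions count from the RefSeq start site. Capitals mark, in Alas2, the GATA-factor match at -86 to -81 (AGATAA read on the other strand); in Cpox, a KLF1 match at -204 to -198 (CACACCC on the other strand) and a GATA-factor match at -86 to -81 (TGATAA on the other strand); and in Urod, a GC box at -28 to -23 (GGGCGG on the other strand).
Alas2, chrX:150547167-150547374, plus strand: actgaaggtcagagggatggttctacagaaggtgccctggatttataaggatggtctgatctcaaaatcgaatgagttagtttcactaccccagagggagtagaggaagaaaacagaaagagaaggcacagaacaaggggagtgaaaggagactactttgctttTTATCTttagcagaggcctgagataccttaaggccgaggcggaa
Cpox, chr16:58669958-58670207, plus strand: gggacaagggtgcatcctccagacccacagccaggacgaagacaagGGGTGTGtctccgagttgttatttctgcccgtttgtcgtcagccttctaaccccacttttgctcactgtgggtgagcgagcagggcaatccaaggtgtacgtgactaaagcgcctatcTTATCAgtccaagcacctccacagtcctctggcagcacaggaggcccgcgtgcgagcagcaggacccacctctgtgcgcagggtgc
Urod, chr4:116994414-116994663, minus strand: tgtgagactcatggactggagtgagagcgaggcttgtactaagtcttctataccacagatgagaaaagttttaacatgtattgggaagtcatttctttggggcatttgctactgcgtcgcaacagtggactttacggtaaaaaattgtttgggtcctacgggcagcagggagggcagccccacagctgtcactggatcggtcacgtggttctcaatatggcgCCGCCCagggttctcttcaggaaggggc

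Windows from 250 bases before to 50 bases after a start site were found for 7 of the 8 enzymes, which together had 10 windows. AGATAA or TGATAA, searched on both strands, was present for 3 of the 7 (Alas2, Uros and Cpox). It was in 3 of their 10 windows, against 18.6% of all 32851 windows. CACACCC or CACGCCC was present for 1 (Cpox), in 1 of 10 windows, against 15.5% of all windows. The GC box GGGCGG was present for 6, all but Cpox, in 7 of 10 windows, against 35.7% of all windows. Alad has overlapping windows that hold some of the same GC box matches, so these matches count more than once among the windows. The NF-E2 motif TGAGTCA was present for none, against 5.20%. Cpox holds another GATA-factor match, at 5 to 10 bases after its start. These matches describe letters in a window and are not binding sites.

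Translation of Alas2 is known to be held back by iron regulatory proteins on a loop near the start of its mRNA. The loop pattern, a C, then any 5 bases, then CAGTGN, was looked for on the sense strand in the first 100 bases of coding transcripts in the GENCODE vM21 annotation. It was found in 3 of the 8 enzymes, Alas2, Uros and Fech, and in 7.87% of 22344 genes. The matches of Uros and Fech lie ahead of the coding starts of their transcripts. Transcript Alas2-202 holds a match ahead of its coding start and another after it. The Alas2 site ahead of the coding start is shown, with its loop letters in capitals.
Alas2 loop site, chrX:150547459-150547483, plus strand: tggttcgtcctCAGTGCagggcaac

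Erythroid pools were first set against endothelial pools, which reads the pathway in red cells against vessel cells of the same tissue. Alas2 and the 6 later enzymes were higher in erythroid pools by between 21.2-fold (Ppox) and 4043-fold (Alas2), and Alas1 was lower. By edgeR's quasi-likelihood test with Benjamini-Hochberg adjustment over 12136 genes, 7 of 8 enzymes rose and 1 fell. Over all genes tested, 14.4% were called higher and 26.6% lower, 41.0% in either direction. The libraries of these populations did not overlap for any of the 8 enzymes, as for 18.7% of all genes in the higher and 32.1% in the lower direction. The median difference of the 8 was 5.48 on the log2 scale, against -0.36 for all genes tested. Scaling by library size alone, in place of TMM, shifted the median of all genes by -1.54 and left all 8 calls in place, with Alad, for example, at 3.24 in place of 4.79 on the log2 scale.

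Alas2 (chromosome X, 150547375 to 150570638, plus strand) had 17, 6 and 0 counts in the endothelial libraries, 19959, 14862 and 14436 in the erythroid and 867 and 1404 in the double positive ones. On the normalised scale this was 2.25, 0.978 and 0 CPM in endothelial replicates 1 to 3, where the 0 allows up to 0.485 CPM by counting error (3 counts), and 4652, 4715 and 4708 CPM in erythroid replicates 4 to 6. The double positive pools lay between, at 166 and 286 CPM, and no library of any population overlapped another's range. The erythroid excess over endothelial pools was 11.98 on the log2 scale (SE 0.63, 95% interval 10.55 to 13.41, edgeR adjusted p = 2.74e-06). It rests on 23 endothelial counts, and without endothelial replicate 1 it was 13.15 (edgeR adjusted p = 2.66e-05).

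Alas1 (chromosome 9, 106233455 to 106248654, minus strand), the form used in all tissues, ran the other way. Its counts were 430, 77 and 596 in the endothelial libraries, 0, 19 and 0 in the erythroid and 202 and 105 in the double positive ones, or 56.9, 12.6 and 96.3, then 0, 6.03 and 0, then 38.6 and 21.4 CPM. The zeros allow up to 0.699 CPM in erythroid replicate 4 and 0.978 CPM in replicate 6. Every erythroid library was below every other library, and the double positive values fell inside the endothelial range. Endothelial replicate 2, with the least Alas1, also had the highest macrophage marker sum. What part that has was not tested. Alas1 fell by 4.83 on the log2 scale in erythroid against endothelial pools (SE 1.28, 95% interval -7.72 to -1.94, edgeR adjusted p = 0.0144). The call ended without endothelial replicate 3 (-4.16, edgeR adjusted p = 0.0550), and over the alternatives run the adjusted p ranged from 0.00295 to 0.0550. The value was -4.22 without erythroid replicate 4. Without erythroid replicate 5 the remaining erythroid pools had no Alas1 count, and the level was at least 135-fold lower, taking 3 counts over those pools as the floor.

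Counted together per kilobase of exons, Alas2 made up 9.22%, 16.7% and 0% of the first enzyme's reads in endothelial replicates 1 to 3, 100%, 99.95% and 100% in erythroid replicates 4 to 6, and 91.7% and 97.2% in double positive replicates 7 and 8. The double positive mean was 94.4% ± 3.88 (SD, n = 2), and it was 87.1% from counts with no length correction. So most first-step reads of the double positive pools were the red cell form even though their Alas1 level lay inside the endothelial range.

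**Figure D1:**
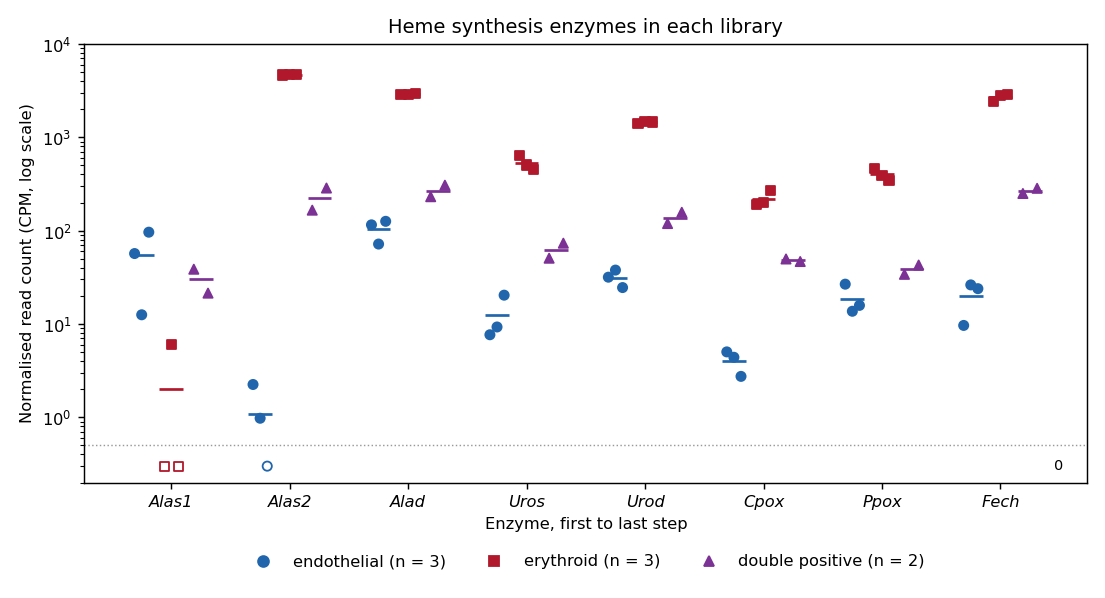
Normalised read count (CPM, log axis) of each enzyme in each of the 8 libraries, from first to last step; circles are endothelial, squares erythroid and triangles double positive pools, horizontal bars are group means, and open symbols in the strip at the bottom are libraries with 0 counts. Alas2 runs from at most 2.25 CPM in endothelial pools to between 4652 and 4715 CPM in erythroid pools, and Alas1 shows the reverse order.

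The 3 cytosolic enzymes all rose. Alad, which joins pairs of aminolevulinate molecules (chromosome 4, 62509169 to 62519918, minus strand), was at 115, 71.9 and 126 CPM in endothelial pools and 2860, 2850 and 2932 CPM in erythroid pools, 27.6-fold higher (log2 4.79, SE 0.24, edgeR adjusted p = 2.11e-06). Uros, which closes the ring (chromosome 7, 133686243 to 133710072, minus strand), was at 7.67, 9.29 and 20.4 CPM against 636, 506 and 450 CPM, 42.8-fold higher (edgeR adjusted p = 1.49e-05). Urod, which trims the side chains (chromosome 4, 116989965 to 116994413, minus strand), was at 31.7, 37.8 and 24.6 CPM against 1413, 1485 and 1459 CPM, 46.3-fold higher (edgeR adjusted p = 5.81e-07). None of these ranges overlapped, and the erythroid pools lay close together in Alad and Urod. Alad was the enzyme with the highest endothelial level per kilobase.

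Of the 3 mitochondrial enzymes that end the chain, Fech moved most. It was at 9.65, 26.2 and 23.9 CPM in endothelial pools and 2417, 2781 and 2884 CPM in erythroid pools, 136-fold higher (log2 7.08, SE 0.38, edgeR adjusted p = 3.09e-06). Cpox, which oxidises coproporphyrinogen (chromosome 16, 58670292 to 58717636, plus strand), was at 5.02, 4.40 and 2.75 CPM against 189, 200 and 268 CPM, 53.4-fold higher (edgeR adjusted p = 2.16e-06). Ppox, the enzyme before Fech (chromosome 1, 171275990 to 171281186, minus strand), was at 26.7, 13.7 and 15.8 CPM against 463, 389 and 347 CPM, 21.2-fold higher (edgeR adjusted p = 8.29e-06). Again no endothelial library reached an erythroid one, and Ppox showed the smallest excess of the 7. Fech lies on chromosome 18.

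Some of these counts could hold reads of a neighbour, because the strand setting of the counting is not given in the sources used here. Exons of Ppox share 791 bases, 17.5% of its exon length, with B4galt3 on the opposite strand, which had 70 to 249 counts per library. Exons of Alas2 share 311 bases with Apex2, which had 64 to 169 counts per library, more than Alas2 itself had in any endothelial library.

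Double positive pools were then set against endothelial pools; this comparison and the next share the double positive libraries, and this one shares the endothelial libraries with the first. Here 7 of 8 enzymes rose and none fell, and Alas1 did not pass the test. Over all genes tested, 14.6% were called higher and 6.92% lower, 21.6% in either direction. The same 7 lay above every endothelial library, as did 32.9% of all genes. Excesses ran from 2.04-fold (Ppox) to 195-fold (Alas2), with Fech at 13.5-fold and Cpox at 11.8-fold next below Alas2. The median of the 8 was 2.23 on the log2 scale against 0.06 for all genes. With library size alone the median of all genes moved by -0.63, Alad came to 0.72 (edgeR adjusted p = 0.0452), and of the 7 calls that of Ppox ended.

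Fech, which inserts the iron, was at 250.0 and 284 CPM in the double positive pools, above every endothelial pool, 3.75 higher on the log2 scale (SE 0.34, edgeR adjusted p = 0.000165). Cpox was at 49.7 and 46.7 CPM, 3.55 higher (SE 0.28, edgeR adjusted p = 7.67e-05). Alas2 was 7.61 higher (SE 0.58, edgeR adjusted p = 6.00e-05) and, without endothelial replicate 1, 8.77 higher (edgeR adjusted p = 0.000273). In each of these the lower of the double positive pools was well above the highest endothelial pool.

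The cytosolic enzymes rose less. Uros was at 50.7 and 73.4 CPM, 5.0-fold higher (edgeR adjusted p = 0.00362), Urod at 119 and 157 CPM, 4.40-fold higher (edgeR adjusted p = 0.000156), and Alad at 231 and 307 CPM, 2.58-fold higher (edgeR adjusted p = 0.00369). All 3 stood above every endothelial library. Ppox was at 34.0 and 42.8 CPM, also above every endothelial library, with a log2 difference of 1.03 (SE 0.29, edgeR adjusted p = 0.0346). That call ended under 9 of 16 alternatives, with edgeR adjusted p = 0.40 when scaled by library size alone and 0.228 without double positive replicate 8. The p was 0.0778 without double positive replicate 7, 0.0841 and 0.102 without endothelial replicates 2 and 3, and 0.0515 without erythroid replicate 5. Alas1 gave -0.88 (95% interval -3.50 to 1.74, edgeR adjusted p = 0.669), an interval wide enough to hold a several-fold difference in both directions.

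**Figure D2:**
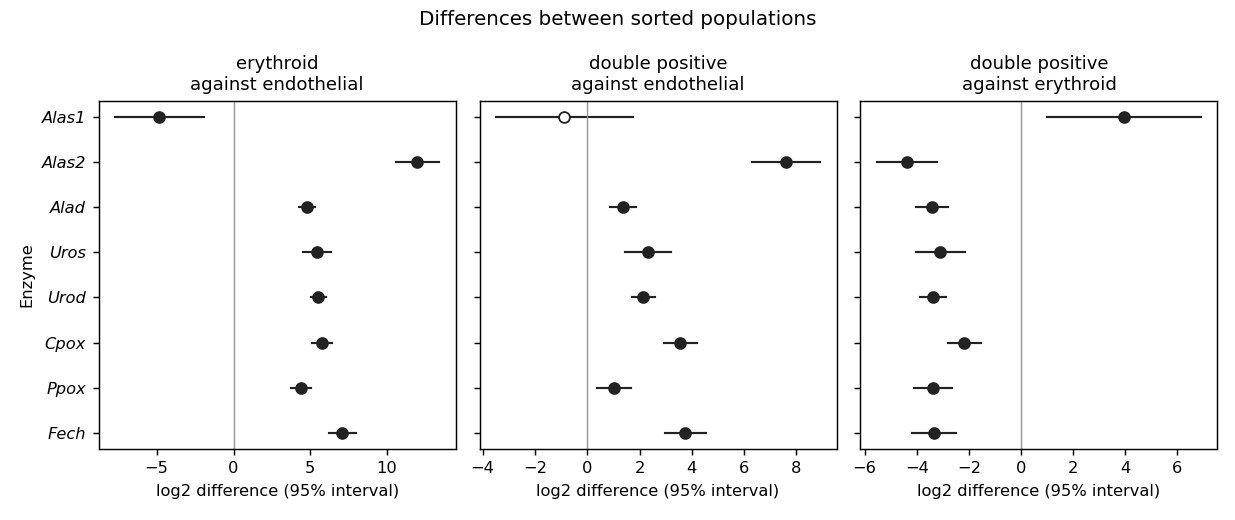
Fitted log2 difference of each enzyme (points) with its 95% interval (lines) in the 3 comparisons, each panel with its own axis; filled points passed the test at an adjusted p under 0.05 and the open point did not. Cpox lies nearest to 0 of the 7 enzymes that were lower in double positive than in erythroid pools, and Alas2 farthest.

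Set against erythroid pools, double positive pools had less of 7 enzymes and more Alas1. Over all genes tested, 31.5% were called higher and 10.6% lower, 42.0% in either direction. Alas2 fell by 4.38 on the log2 scale (SE 0.51, 95% interval -5.54 to -3.21, edgeR adjusted p = 0.000261), Cpox by 2.18 (SE 0.28, 95% interval -2.81 to -1.55, edgeR adjusted p = 0.000387), and the other 5 by between 3.10 (Uros) and 3.42 (Alad). The median of the 8 was -3.36, against 0.71 for all genes. With library size alone the median of all genes moved by 0.90, Cpox came to -1.27 and Alas2 to -3.48, and the 8 calls held. In all 8 enzymes the libraries of these populations did not overlap, a state that held for 20.0% of all genes in the lower and 47.5% in the higher direction.

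Alas1 was 15.5-fold higher in double positive than in erythroid pools (log2 3.95, SE 1.31, 95% interval 0.99 to 6.92, edgeR adjusted p = 0.0378). The call ended under 8 of 16 alternatives, among them DESeq2 (adjusted p = 0.106), and the highest adjusted p was 0.144. By edgeR it ended without endothelial replicate 1 or 3, erythroid replicate 4 or 6, or double positive replicate 7 or 8. The difference was 3.32 without erythroid replicate 4, and at least 73.6-fold without erythroid replicate 5, which held all 19 erythroid counts.

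As a share of the mean erythroid level, the double positive mean was 22.0% for Cpox (22.7% in replicate 7 and 21.3% in replicate 8) and 4.82% for Alas2 (3.53% and 6.10%). Alad, Uros, Urod, Ppox and Fech lay between, from 9.34% for Alad to 11.7% for Uros. The embryonic globins, which receive the heme, were at 9.85% to 11.8% in this mean, close to these 5 enzymes. By replicate the globins were at 7.29% to 8.60% in replicate 7 and 12.3% to 15.0% in replicate 8. The 5 enzymes were at 8.02% to 9.55% in replicate 7 and 10.55% to 13.8% in replicate 8. The 8 erythroid transcription factors had a median of 6.52% and ran from 3.77% (Klf1) to 18.7% (Ldb1), with the GATA1 gene Gata1 at 4.88%. The 6 erythroid markers shown ran from 3.10% (Epb42) to 6.61% (Rhag). Alas2 thus sat with Gata1 and Klf1, the lowest of the factors, in this measure, and Cpox above the globins, these factors and these markers. Of the 8 factors, 7 rose and none fell in erythroid against endothelial pools (all genes: 14.4% higher, 26.6% lower). In double positive against endothelial pools 4 rose and 2 fell (all genes: 14.6% and 6.92%). In double positive against erythroid pools all 8 fell (all genes: 10.6% lower). The 2 that fell against endothelial pools were Lmo2 (log2 -1.35, edgeR adjusted p = 0.0186) and Ldb1 (log2 -2.19, edgeR adjusted p = 0.0138), which join the GATA1 complex. Replicate 8 was higher than replicate 7 in 6 of these 7 enzymes and lower in Cpox.

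**Figure D3:**
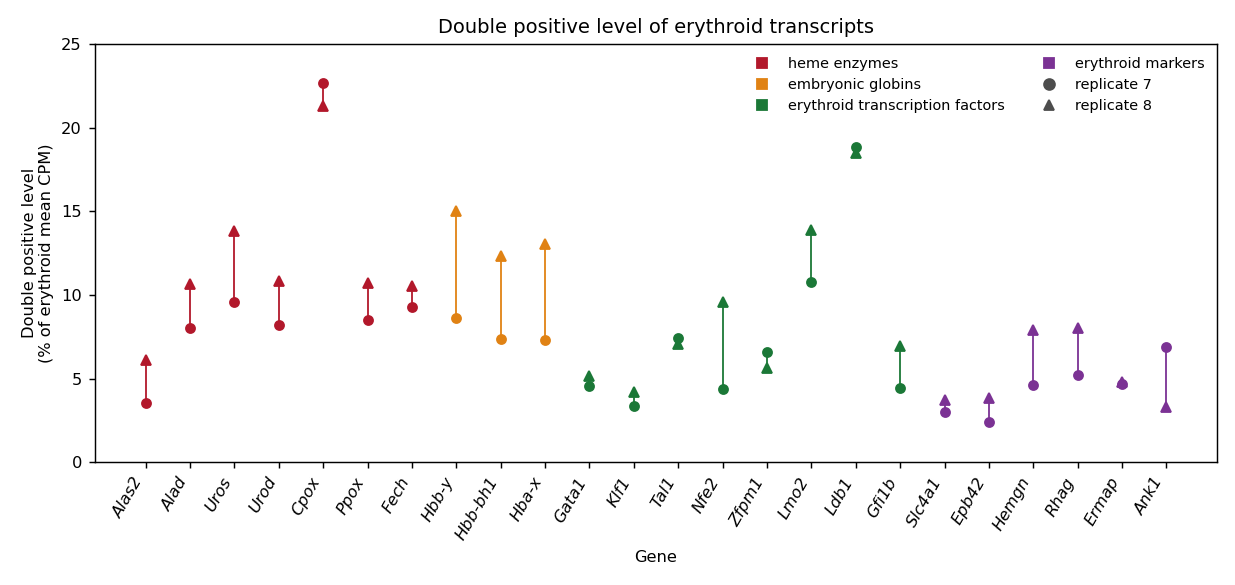
Double positive level of 7 enzymes, 3 embryonic globins, 8 erythroid transcription factors and 6 erythroid markers, as a percent of the erythroid mean CPM; circles are replicate 7 and triangles replicate 8, joined by a line. Cpox is highest at 22.7% and 21.3%, and Alas2 at 3.53% and 6.10% is the lowest enzyme; Alas1 is left out because it was higher than in erythroid pools.

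Ratios of counts within a library do not depend on how libraries were scaled. The 6 ratios computed were chosen after the values were seen. Alas2 to Fech was 1.93, 1.70 and 1.63 in erythroid replicates 4 to 6 and 0.663 and 1.01 in the double positive pools, and Cpox to Fech was 0.0781, 0.0720 and 0.0929 against 0.199 and 0.164. Neither ratio overlapped between the populations. Alas2 to Cpox (17.6 to 24.6 against 3.34 and 6.13) and Alas2 to Alad (1.61 to 1.65 against 0.718 and 0.932) were apart as well, whereas Alad to Fech and Urod to Fech overlapped. An exact two-sided permutation test of 3 against 2 libraries cannot go below p = 0.2, which was the value for each of the 4 ratios that were apart.

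The make-up of the enzyme reads is another form of these same counts and adds no separate evidence. Of all reads on the 8 enzymes, Alas2 took 36.8%, 36.5% and 36.1% in the erythroid pools, 17.7% and 23.5% in the double positive pools, and 0.880%, 0.553% and 0% in the endothelial pools. Alad took the largest share in the endothelial pools, 45.2%, 40.7% and 40.7%, and shares close together in the other 2 populations, 22.0% to 22.7% (erythroid) and 24.6% and 25.2% (double positive). Alas1 took 22.3%, 7.10% and 31.1% in endothelial pools, and Cpox took 5.29% and 3.83% in double positive pools against 1.5% to 2.05% in erythroid pools. All 8 together were 0.711% to 0.756% of all counts in erythroid pools, 0.106% and 0.124% in double positive pools and 0.0291% to 0.0509% in endothelial pools.

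**Figure D4:**
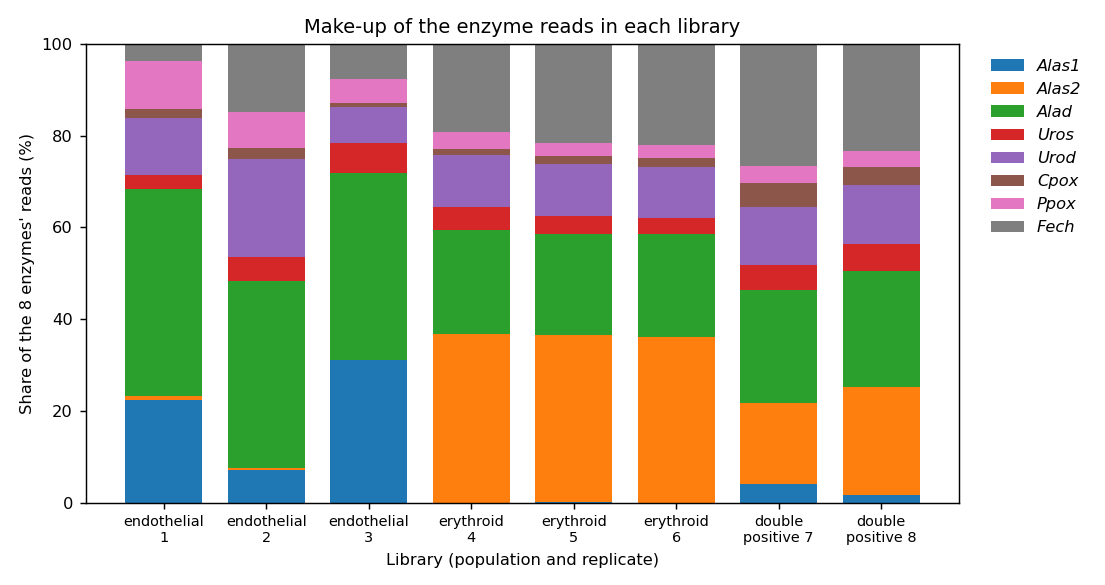
Share of the reads of the 8 enzymes that each enzyme took (percent, stacked to 100), 1 bar per library. The 3 erythroid bars are nearly alike, with Alas2 at 36.1% to 36.8%, and the endothelial bars are led by Alad.

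Levels per kilobase of exons put the enzymes in order within a population. In erythroid pools the order was Alas2 (1952 CPM per kb ± 14.4), Alad (1540 ± 23.9), Urod (560 ± 14.2), Fech (195 ± 17.7), Uros (148 ± 26.6), Ppox (88.6 ± 13.0), Cpox (32.9 ± 6.43) and Alas1 (0.326 ± 0.564; all SD, n = 3). Only Fech and Uros overlapped as neighbours in this order. With coding length in place of all exons, Alad came first (2910 CPM per kb) and Alas2 second (2664), and Fech rose above Urod, while Ppox, Cpox and Alas1 stayed last. In double positive pools Alad led by both lengths (144 per kb of exons and 272 per kb of coding length) and Alas2 was second at 94.0 per kb of exons. By coding length Fech (211) was above Alas2 (128), and Alas2 overlapped Urod. In endothelial pools Alad led at 55.8 per kb of exons and Alas2 was last at 0.447.

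Among the 5 genes whose pattern over the 8 libraries was most like that of Alas2, by root mean square distance of centred log2 CPM, were Rhd (0.72), Rhag (0.80), Hemgn (0.80) and Slc4a1 (0.86). Rhd, Rhag and Slc4a1 encode proteins of the red cell membrane. Those most like Alas1 were Zfp260 (0.63), Mospd2 (0.66), Kdm5b (0.71), Obfc1 (0.77) and B3gnt2 (0.80). All 5 were at 0 in erythroid replicates 4 and 6 and detected in replicate 5, as Alas1 was. Being picked by distance over these same 8 libraries favours such a shared pattern.

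Genes that bring substrates to the mitochondrion and move intermediates across its membrane went largely with the enzymes. Of 12 tested, 8 rose, 1 fell and 3 did not pass in erythroid against endothelial pools (all genes: 14.4% higher, 26.6% lower). In double positive against endothelial pools 8 rose and none fell (all genes: 14.6% and 6.92%). In double positive against erythroid pools 2 rose and 7 fell (all genes: 31.5% and 10.6%). Slc25a37, the mitochondrial iron importer mitoferrin-1, was at 15.1, 16.8 and 10.7 CPM in endothelial pools, 1807, 1896 and 1798 in erythroid pools and 162 and 157 in double positive pools. Populations did not overlap, and the erythroid excess was 129-fold (edgeR adjusted p = 1.93e-07). Abcb10, its partner in the inner membrane, was 151-fold higher in erythroid pools, Fam210b 101-fold and Tmem14c, a porphyrinogen carrier, 11.3-fold. Slc25a28, the mitoferrin-2 gene of other tissues, was the one member to fall, from 4.69 to 7.14 CPM in endothelial pools to 0, 0 and 1.30 in erythroid pools (log2 -3.85, SE 1.34, edgeR adjusted p = 0.0457). Suclg1 and Sucla2, subunits of the enzyme that works on succinyl-CoA, were the members higher in double positive than in erythroid pools, Suclg1 by 5.55-fold and Sucla2 by 1.74-fold.

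Genes listed as enzyme partners or as part of enzyme turnover were mixed. Of 6 tested, 4 rose and 2 fell in erythroid against endothelial pools (all genes: 14.4% higher, 26.6% lower). In double positive against endothelial pools 4 rose and none fell (all genes: 14.6% and 6.92%). In double positive against erythroid pools 2 rose and 1 fell (all genes: 31.5% and 10.6%). Slc25a39, a mitochondrial glutathione carrier, was 8.09-fold higher in erythroid than in endothelial pools. Pgrmc1 and Pgrmc2, heme-binding membrane proteins, fell in erythroid pools. Pgrmc1 went from 81.6 to 94.3 CPM in endothelial pools to 24.9 to 39.8 CPM (edgeR adjusted p = 0.000610). The fall of Pgrmc2 rests on 12 erythroid counts (edgeR adjusted p = 0.0470). Pgrmc1 was highest in the double positive pools, at 200.3 and 186 CPM.

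Fech carries an iron-sulfur cluster. Of 10 genes of cluster assembly 7 rose and none fell in erythroid against endothelial pools (all genes: 14.4% higher, 26.6% lower). In double positive against endothelial pools 2 rose and none fell (all genes: 14.6% and 6.92%). Against erythroid pools none of the double positive differences rose and 6 fell (all genes: 31.5% and 10.6%). Glrx5 was at 23.7, 23.0 and 8.40 CPM in endothelial pools, 291, 315 and 264 in erythroid pools and 65.6 and 87.6 in double positive pools. The changes were smaller than in the enzymes: the list's median in erythroid against endothelial pools was 1.43 on the log2 scale. The median of all genes was -0.36.

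Genes that export, take up or break down heme did not move one way. Of 7 tested, 3 rose and 2 fell in erythroid against endothelial pools (all genes: 14.4% higher, 26.6% lower). In double positive against endothelial pools 2 rose and 1 fell (all genes: 14.6% and 6.92%). In double positive against erythroid pools 2 rose and 3 fell (all genes: 31.5% and 10.6%). Hmox1, the inducible heme oxygenase that opens the ring, was at 137, 160 and 250.3 CPM in endothelial pools and at 102 and 83.4 in double positive pools, with a single count in all 3 erythroid libraries. Its erythroid pools were thus below all others (edgeR adjusted p = 3.16e-06), and its difference of double positive from endothelial pools did not pass (log2 -0.98, edgeR adjusted p = 0.0662). Hmox2, the form that is always made, was lower in erythroid pools (15.3 to 24.4 CPM) than in endothelial (63.8 to 78.5 CPM) or double positive ones (38.8 and 49.5 CPM). Blvrb, a biliverdin reductase, was 23.5-fold higher in erythroid than in endothelial pools. Abcg2, a porphyrin and drug exporter, was at 570 and 568 CPM in double positive pools, 67.3 to 126 in endothelial and 363 to 417 in erythroid pools. Slc48a1, a heme carrier of lysosomal membranes, was at 8.41 and 7.74 CPM in the double positive pools, below both endothelial (29.8 to 46.9 CPM) and erythroid pools (112 to 170 CPM).

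Sensors of heme and iron mostly did not follow the enzymes. Of 6 tested, 1 rose and 1 fell in erythroid against endothelial pools (all genes: 14.4% higher, 26.6% lower). In double positive against endothelial pools 1 rose (all genes: 14.6% higher). In double positive against erythroid pools 3 rose and 1 fell (all genes: 31.5% and 10.6%). The one that rose in erythroid pools was Eif2ak1, the heme-regulated kinase that stops globin translation when heme is short, 12.6-fold (edgeR adjusted p = 3.22e-05). Its double positive values, 29.1 and 25.9 CPM, lay inside the endothelial range of 19.4 to 42.5 CPM, unlike those of the 7 enzymes that rose. Among 8 genes of other heme users, such as cytochromes and catalase, 4 rose and 1 fell in erythroid against endothelial pools. In double positive against endothelial pools 5 rose, and in double positive against erythroid pools 2 rose and none fell. The shares of all genes called are the same as for the sensors. Cat, catalase, was 3.80-fold higher in erythroid than in endothelial pools, and Cox10, which starts the making of heme A, was the one that fell (log2 -2.22, edgeR adjusted p = 0.00701).

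**Figure D5:**
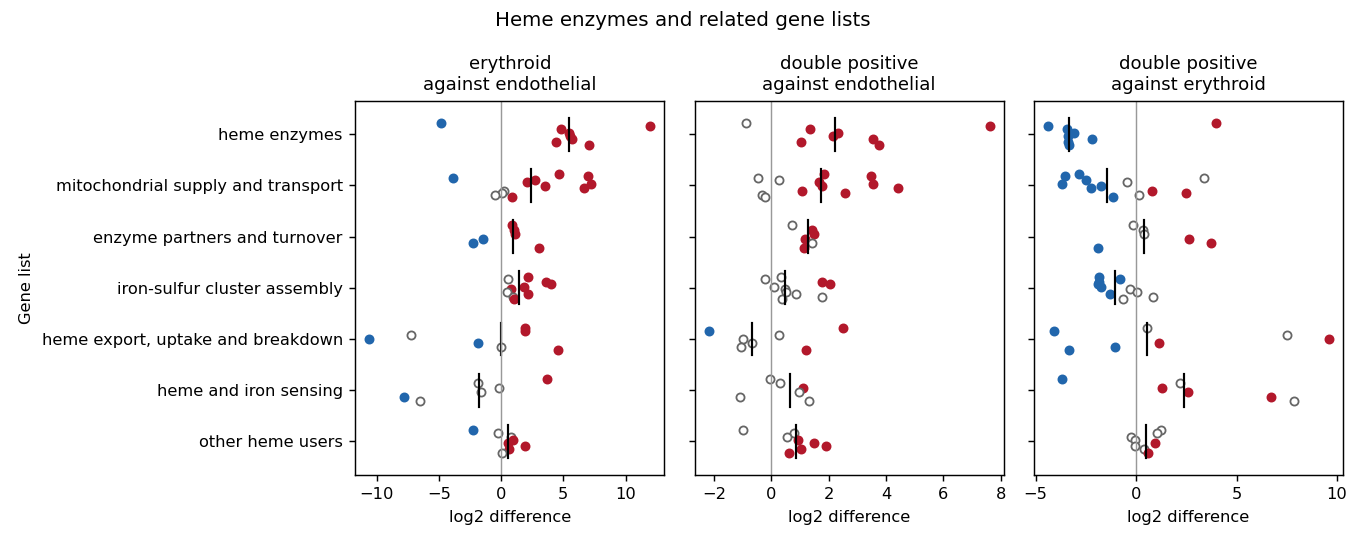
Fitted log2 difference of each gene in 7 lists (points) with the list median (vertical bars), in the 3 comparisons, each with its own axis; red points were called higher, blue lower, and open points did not pass. The medians of the heme enzymes are 5.48, 2.23 and -3.36 from left to right; values of genes at 0 counts in a whole group depend on the fit's prior count.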

How the data were processed

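The authors deposited a table of raw read counts per gene symbol for 8 libraries, with no scaling; per the submitters' processing notes, FastQC, HTSeq and genome build mm10 were used, with the aligner, annotation and strand setting not given in the sources used here. Per the labels' protocols, polyadenylated RNA was amplified by Smart-seq2 with 14 PCR cycles, which adds noise at 24 or 25 cells per pool. Groups are the sorting gates. Genes were filtered by filterByExpr (minimum count 10), leaving 12136, scaled by TMM and tested with edgeR 4.0.16 (R 4.3.3; quasi-likelihood test, all 8 libraries in 1 fit, Benjamini-Hochberg over all tested genes, threshold 0.05, two-sided, 95% intervals). The scripts were tested on simulated counts. Replicates differed by more than sampling noise. DESeq2 1.42.0, limma-voom (limma 3.58.1), other scalings, filters and left-out libraries were the alternatives. Floors for 0 counts (3 counts) cover counting error only.

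The enzymes and gene lists were chosen with earlier results of these data known. Named were all 8 enzymes, and from each other list up to 4 genes with the smallest adjusted p in any comparison plus those called against their list's majority; Hmox1, Gata1, Klf1, Hbb-y and Cdh5 were read whatever their values, and the 5 genes nearest to Alas1 and Alas2 were taken by distance. Of 112 listed genes, 110 were in the table. Exon lengths and overlaps come from GENCODE vM21 (GRCm38). Some genes that the rule would name are not reported here by name.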

Additional observations from a re-analysis of the deposited data

How the results depend on the processing

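Of 24 enzyme differences (8 enzymes, 3 comparisons), 21 kept their direction and side of the threshold under all 16 alternatives, of which 8 left out 1 library. The 3 that did not were Alas1 in erythroid against endothelial pools, Ppox in double positive against endothelial pools and Alas1 in double positive against erythroid pools; no direction reversed. The cause was not tested. The number of enzymes called lower in erythroid against endothelial pools ranged from 0 to 1 when 1 library was left out, and so did the number called higher in double positive against erythroid pools, which was 0 by DESeq2 and 0 in a fit of only the 2 populations compared.

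Scaling by library size alone shifted the median of all genes by -1.54, -0.63 and 0.90 on the log2 scale in the order of the report, and the enzymes moved with it: Alas2 then gave 10.44, 6.96 and -3.48. Calls over all genes became 420 higher and 7270 lower in erythroid against endothelial pools (1745 and 3232 with TMM), 1118 and 1901 in double positive against endothelial pools (1776 and 840), and 5760 and 473 in double positive against erythroid pools (3820 and 1283). Genes lower in double positive against endothelial pools numbered 1415 by DESeq2 and 1422 in a fit of only those 2 populations. Without 1 library, calls in double positive against endothelial pools ranged from 696 to 1854 higher and from 219 to 1038 lower, and in double positive against erythroid pools from 2315 to 3845 higher and from 609 to 1348 lower. The lowest of each came from leaving out a double positive library. The double positive Alas2 percentage was 87.1% from counts alone and 88.0% with coding length, an alternative chosen after seeing the data.

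No paired analysis was possible because the labels give no link between pools of different populations. Depth limits Alas1 in erythroid pools (19 counts in all) and Alas2 in endothelial pools (23 counts), and with 2 double positive pools the spread rests on the other populations.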
